A study of Mus musculus with 16 samples.

Results

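Lysosomal genes were followed in mouse embryonic stem cells (ESCs), the cultured pluripotent cells of the early embryo, that either carried Dgcr8 or lacked it and that grew normally or were held in a paused state. The set held 62 genes of 35968 in the summed table, 21951 of them protein-coding. A list of names gave 36 of them (27 hydrolases, 2 other lumenal proteins and 7 membrane proteins), and all 26 protein-coding genes whose symbol begins with Atp6v0, Atp6v1 or Atp6ap gave the V-ATPase. The rule uses names and symbols and no expression value, though it was written with earlier results of these data known. Of these genes, 57 passed the filter on low counts and were tested, and the 5 that did not were Atp6ap1l, Atp6v1b1, Atp6v1e2, Atp6v1g3 and Atp6v1fnb, with at most 15 counts in any library. The last is a neighbour of Atp6v1f that enters by its symbol and is not a pump subunit. Poly(A) RNA was sequenced in 4 groups of 4 libraries each: wild-type ESCs in normal ESC culture, wild-type ESCs in mTORi culture, Dgcr8 KO ESCs in normal ESC culture and Dgcr8 KO ESCs in mTORi culture. All were taken at day 2, and the samples in mTORi culture are titled paused. The labels name neither the inhibitor and its dose nor the deleted part of Dgcr8, and they do not say whether the KO line is 1 clone or whether replicates were separate cultures, so each p-value reflects the variation among these libraries alone. The labels give the study's question as how pluripotent cells enter dormancy and what microRNAs do in it.

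Lysosomes are acidic organelles that break down proteins, glycans, lipids and nucleic acids with hydrolases that work best at low pH. The acid is made by the V-ATPase, a rotary proton pump in which a peripheral V1 sector hydrolyses ATP and a membrane V0 sector passes protons. mTORC1, the growth kinase blocked in the mTORi culture, sits on the lysosomal surface and keeps the transcription factors TFEB and TFE3 phosphorylated in the cytosol. When it is inactive they enter the nucleus and bind CLEAR elements, palindromes built around the core CACGTG in the promoters of many lysosomal genes. Dgcr8 is the RNA-binding partner of Drosha, and without it canonical microRNAs are not made.

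Libraries held between 88377380 and 116646028 estimated counts. Except in KO paused culture, replicates 1 and 2 of a group were closer to each other than to replicates 3 and 4, and so were 3 and 4 among themselves. The median chi-square over genes between 2 libraries of a group was 1.28 to 3.37 within these subsets and 2.12 to 13.0 across them, with the widest gaps in wild-type normal culture, against 0.455 for sampling noise alone. No called lysosomal gene had opposite signs in the subsets. The labels name no batch, and subset values are given below for genes in which they differ widely. Dgcr8 stood at 45.3 to 56.2 CPM (counts scaled by the size of the library) in the wild-type libraries and at 173 to 256 in the KO libraries. Its transcripts were thus higher in the KO, and because the deleted part is not stated, they do not check the labels. All 9 ESC markers exceeded 1 TPM (a level scaled by transcript length and library) in every group. The 6 macrophage markers were under 1 TPM throughout, and the fibroblast collagens Col1a1, Col1a2 and Col3a1 were also under 1 TPM. Summed markers of primitive and visceral endoderm were 18.2 to 28.8 TPM in wild-type and 7.91 to 12.7 TPM in KO libraries. Summed fibroblast markers were 13.4 to 16.1 TPM in wild-type and 22.9 to 32.1 TPM in KO libraries. Most of that sum was Thy1, at 9.03 to 12.5 TPM in wild-type and 21.4 to 30.7 TPM in KO libraries. Twist1 of the same list went the other way, at 2.85 to 3.63 TPM in wild-type and 0.678 to 1.21 TPM in KO libraries. The part of these small sums in any genotype difference was not tested.

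RefSeq promoter windows of 300 bases (build GRCm38.p6, 250 bases before to 50 after the start) were found for 51 of the 62 genes. CACGTG was in the windows of 17 of them (33.3%), against 8.09% of the 27025 genes with a window. TCACGTGA, which contains that core, was in 8 (15.7%), against 1.12% of all genes with a window. Each motif reads the same on both strands. The 8 genes with the longer form were Ctsa, Mcoln1, Ctsd, Cln3, Gla, Atp6v0d1, Atp6v1a and Atp6v0e, and of these Cln3 alone held the full CLEAR palindrome, which 0.37% of all genes with a window held. Lamp1 had the shorter core at 4 places. The 11 genes with no window in the table were Asah1, Atp6v0a2, Ctsb, Atp6v1h, Atp6v1b2, Atp6ap1l, Atp6v0d2, Atp6v1c1, Npc1, Galns and Atp6v1g1. The windows below are shown because the genes that carry them moved in different directions in pausing. They are written on the strand of the gene, capitals mark the motif, and all lie on GRCm38.
Ctsa at chr2:164833750-164833777, plus strand: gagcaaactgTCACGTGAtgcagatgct
Ctsa at chr2:164833767-164833794, plus strand: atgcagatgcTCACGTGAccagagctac
Mcoln1 at chr8:3500463-3500490, plus strand: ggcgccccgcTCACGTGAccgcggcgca
Ctsd at chr7:142387909-142387936, minus strand: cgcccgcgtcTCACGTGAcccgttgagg
Cln3 at chr7:126583340-126583369, minus strand: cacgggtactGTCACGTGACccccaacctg
Atp6v0d1 at chr8:105566051-105566078, minus strand: cctactgcggTCACGTGAgacgcggtgc
Atp6v1a at chr16:44139374-44139401, minus strand: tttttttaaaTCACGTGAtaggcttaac
Atp6v0e at chr17:26676388-26676415, plus strand: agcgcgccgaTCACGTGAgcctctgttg
Lamp1 at chr8:13159090-13159115, plus strand: ggcaagatatCACGTGgtccagcgcc
Lamp1 at chr8:13159136-13159161, plus strand: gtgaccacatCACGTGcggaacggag

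Levels per transcript length were compared between genes in TPM. In wild-type cells in normal culture the highest of the set was Lamp1, a heavily glycosylated coat protein of the lysosomal membrane, at 243 ± 14.7 TPM (mean ± SD, n = 4, as for all means here). The proton-carrying V0 subunit Atp6v0c followed at 222 ± 15.1 TPM and the V1 subunit Atp6v1f at 148 ± 8.66 TPM. The enzymes with the highest levels were Manba, beta-mannosidase, at 116 ± 11.8 TPM and Ctsd, the aspartic protease cathepsin D, at 116 ± 15.0 TPM, which differ by less than their SD. Psap, the precursor of the saposins that present lipids to hydrolases, stood at 100.4 ± 7.85 TPM. At the low end of the enzymes were the sulfatase Arsb at 0.287 ± 0.033 TPM and the heparan sulfate enzymes Naglu at 0.543 ± 0.14 TPM and Sgsh at 0.543 ± 0.09 TPM. For most pump subunits with alternative isoforms, 1 form carried nearly all of the message. Atp6v1c1 was at 31.5 and Atp6v1c2 at 0.333 TPM, Atp6v0d1 at 73.7 and Atp6v0d2 at 0.189 TPM, and Atp6v1g1 at 71.4 and Atp6v1g2 at 1.35 TPM. Atp6v1b2 stood at 101 TPM while Atp6v1b1, the B subunit known from kidney, did not pass the filter. The a subunit sets where the pump is placed in the cell. Among its genes in the set, Atp6v0a1 stood at 13.7, Atp6v0a2 at 9.97 and Atp6v0a4 at 1.45 TPM. Tcirg1, another a subunit gene, is not matched by the symbol rule, and its level was not compared with these. Summed over the hydrolases and lumenal proteins the level was 778 ± 53.4 TPM in wild-type normal, 1167 ± 50.1 in wild-type paused, 962 ± 26.7 in KO normal and 1451 ± 63.7 TPM in KO paused cells. The V-ATPase summed to 1165, 1280, 1225 and 1431 TPM and the membrane proteins to 385, 449, 319 and 518 TPM in the same order. All members together made up 0.284%, 0.329%, 0.287% and 0.381% of the protein-coding TPM in the same order. Because the median gene also shifted on the TPM scale (by 0.28 log2 units in wild-type pausing), changes of genes between groups are given below in TMM-scaled CPM. On that scale the V-ATPase summed to 1243, 1158, 1193 and 1267 CPM, so it was lower in wild-type paused than in wild-type normal cells. The membrane proteins summed to 619, 611, 472 and 657 CPM. The hydrolases and lumenal proteins summed to 1278, 1581, 1488 and 1863 CPM.

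**Figure D1:**
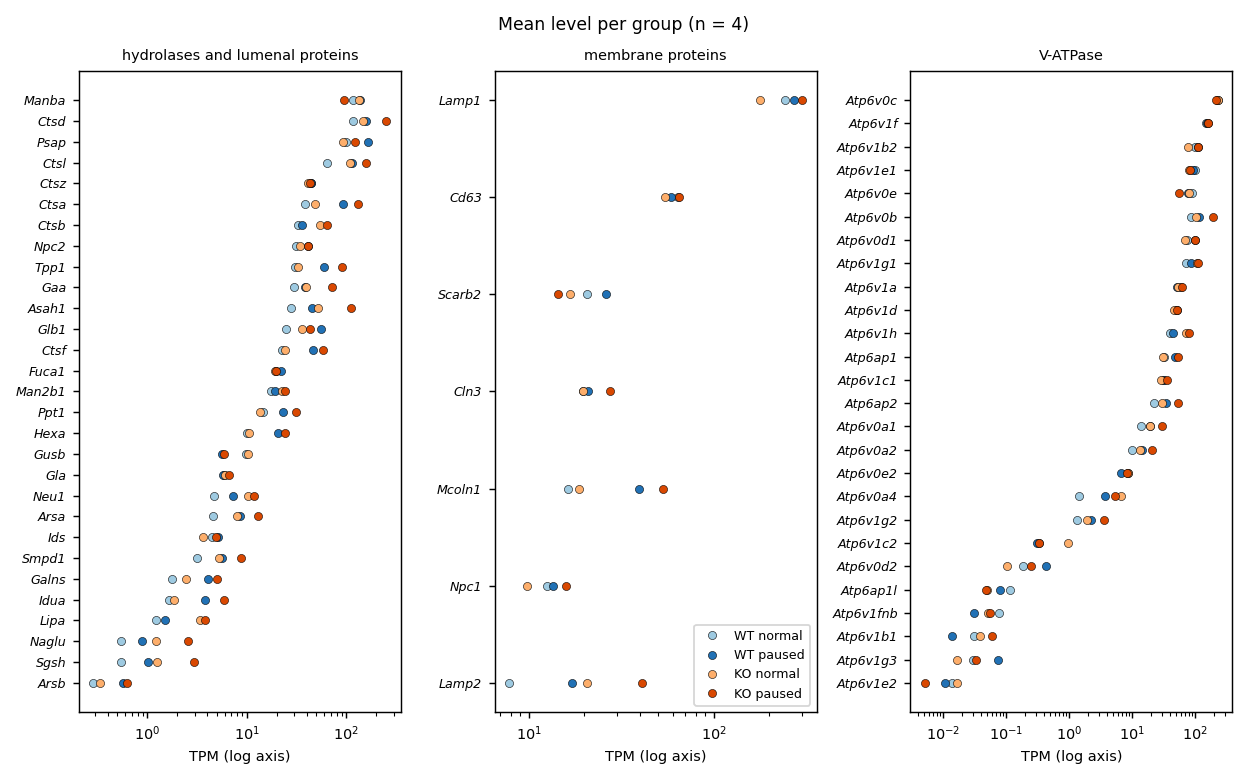
Mean level of each lysosomal gene in TPM (logarithmic axis) in the 4 groups, in separate panels for hydrolases with lumenal proteins, membrane proteins and V-ATPase genes. Lamp1 and Atp6v0c lie at the top of their panels, and Atp6v1c2, Atp6v0d2 and Naglu lie near the bottom of theirs.

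In pausing of wild-type cells 27 of the 57 tested genes rose and 19 fell at an adjusted p under 0.05, or 47.4% and 33.3% of them, where 33.3% of all 18944 genes rose and 27.5% fell. In the hydrolases and lumenal proteins the balance was upwards: 17 of 29 rose and 4 fell, with a median log2 change of 0.44, against 0.04 over all genes. Of the 7 membrane proteins 2 rose and 4 fell. The V-ATPase was split, with 8 of 21 genes higher, 11 lower and a median of -0.11. Changes of at least 0.5 log2 units were found upwards in 16 members and downwards in 2, where the share over all genes was 18.6% and 13.2%. KO cells gave 33 higher and 14 lower members, or 57.9% and 24.6%, against 34.4% and 32.8% of all genes. There 18 hydrolases and lumenal proteins rose and 5 fell (median 0.41), 5 membrane proteins rose and 1 fell, and 10 V-ATPase genes rose and 8 fell (median -0.05). At 0.5 log2 units or more, 23 members rose and 5 fell in KO cells, with 21.4% and 17.5% over all genes. The 2 pausing comparisons share no library. Among the members, 24 genes rose in both, 9 fell in both, and 6 (Atp6v1b2, Atp6v1c1, Cln3, Lamp1, Npc1 and Atp6v0a4) were called in opposite directions. Joint calls over all genes were not counted, so these counts are not read as particular to the members. Values from replicates 1 and 2 and from replicates 3 and 4 were over 1.5 times apart in 14 of the 46 wild-type calls and 8 of the 47 KO calls. In KO pausing these included Arsa (0.24 and 0.58), Atp6v0a4 (-0.71 and -0.41) and Psap (0.12 and 0.29). In bulk RNA, fewer cells of a kind and less RNA per cell cannot be told apart.

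**Figure D2:**
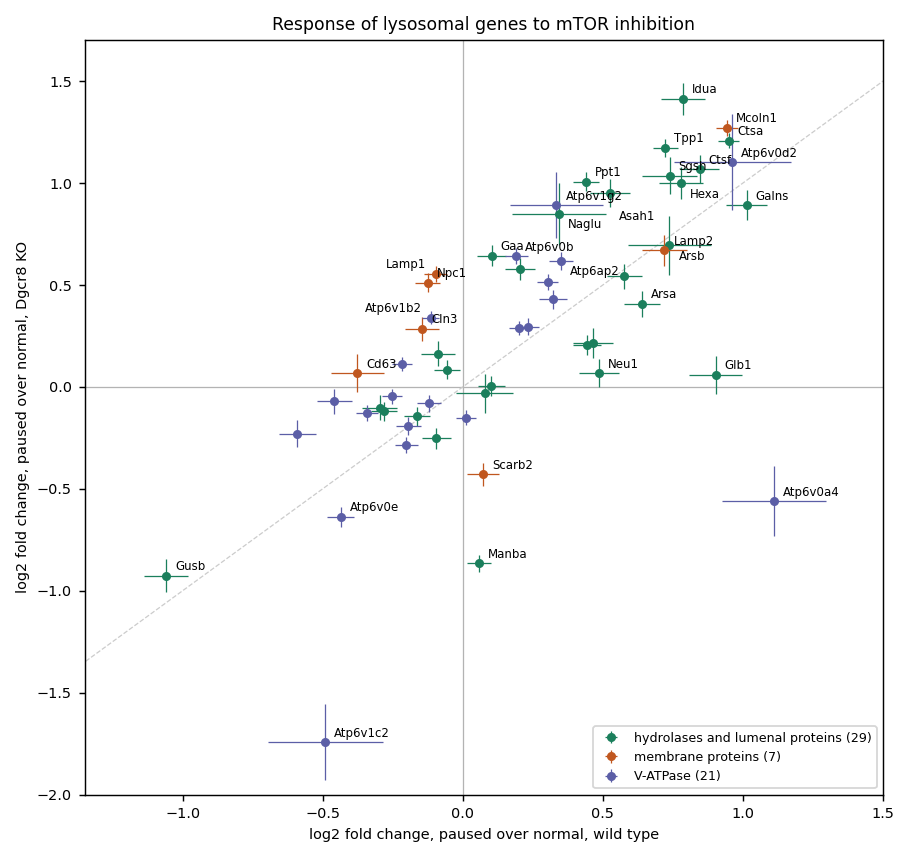
Log2 change in pausing of each of the 57 tested genes in wild-type cells (horizontal axis) and KO cells (vertical axis), with standard errors and the line of equality dashed. Hydrolases lie mostly in the upper right, Gusb lies far to the lower left, and Atp6v0a4, Manba and Glb1 lie below the line.

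Among the proteases, 5 of 7 rose in wild-type cells and 5 of 7 in KO cells, with Ctsz lower in both. All genes tested gave 33.3% higher and 27.5% lower in wild-type cells, and 34.4% and 32.8% in KO cells. Ctsa (ENSMUSG00000017760.16, chromosome 2, 164832873 to 164841032, plus strand), cathepsin A, is a carboxypeptidase that also holds beta-galactosidase and sialidase in a protective complex. Its CPM in replicates 1 to 4 was 43.7, 43.5, 44.5 and 45.2 in wild-type normal and 86.9, 85.5, 85.2 and 84.1 in wild-type paused cells. The KO libraries gave 49.1, 49.7, 49.1 and 48.2 CPM in normal and 103, 115, 117.4 and 117.3 CPM in paused culture. Every paused library lay above every normal one in both genotypes, and the log2 change (± SE) was 0.95 ± 0.04 in wild-type (adjusted p = 5.6e-13) and 1.21 ± 0.04 in KO cells (adjusted p = 1.7e-14). Exons of Ctsa overlap those of Pltp on the other strand, which was at 18.7 to 33.1 TPM. Tpp1, tripeptidyl peptidase 1, clips tripeptides from the ends of proteins. It stood at 46.5, 43.9, 40.1 and 41.7 CPM in wild-type normal and 72.1, 73.1, 67.6 and 71.7 CPM in wild-type paused cells, and at 45.0, 45.9, 46.6 and 45.2 (normal) and 97.7, 103, 103 and 108 (paused) CPM in the KO groups. Its groups did not overlap in pausing, with changes of 0.72 ± 0.04 and 1.17 ± 0.04 in wild-type and KO cells. Of the cysteine cathepsins, Ctsf changed by 0.85 ± 0.07 and 1.07 ± 0.07, and Ctsl by 0.47 ± 0.07 and 0.22 ± 0.07. Ctsd rose by 0.20 ± 0.05 in wild-type and by 0.58 ± 0.05 in KO cells. Ctsb, cathepsin B, was not called, at -0.06 ± 0.05 (adjusted p = 0.32) and 0.08 ± 0.05 (adjusted p = 0.12). Ctsz, a carboxypeptidase, went the other way, from 44.1, 46.5, 43.3 and 44.6 to 38.2, 38.5, 34.7 and 35.5 CPM in wild-type cells (-0.28 ± 0.05). In KO cells it was 41.3, 37.6, 35.7 and 38.4 CPM in normal and 36.2, 35.01, 35.4 and 34.2 CPM in paused culture, ranges that overlap, and that call was lost when any of 5 single libraries was left out.

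The glycosidases, which strip sugars from glycans and glycolipids, moved in both directions: 4 of 11 rose and 3 fell in wild-type cells, and 4 rose and 4 fell in KO cells. These shares are near those of all genes tested (33.3% and 27.5% in wild-type, 34.4% and 32.8% in KO cells). Idua (ENSMUSG00000033540.18, chromosome 5, 108660331 to 108684557, plus strand), alpha-L-iduronidase, acts on dermatan and heparan sulfate. It went from 3.34, 2.83, 2.97 and 3.18 CPM to 5.54, 5.34, 5.28 and 5.10 CPM in wild-type cells and from 3.32, 2.87, 3.42 and 2.97 to 8.35, 7.98, 8.27 and 8.95 CPM in KO cells. The paused libraries were the higher ones in both genotypes, by 0.79 ± 0.08 and 1.41 ± 0.08 log2 units (adjusted p = 7.2e-08 and 2e-11). Exons of Idua overlap those of Dgkq on the other strand. Group means of Dgkq were 6.56 to 9.93 TPM, higher in both paused groups, and those of Idua were 1.66 to 5.84 TPM. Hexa, the alpha chain of beta-hexosaminidase, rose by 0.78 ± 0.08 and 1.00 ± 0.08. Gusb (ENSMUSG00000025534.17, chromosome 5, 129989011 to 130003049, minus strand), beta-glucuronidase, is an acid hydrolase of glycosaminoglycans and had the lowest wild-type pausing value of all 57 genes. It was 17.6, 18.1, 13.8 and 14.7 CPM in wild-type normal and 7.45, 7.48, 7.97 and 7.90 CPM in wild-type paused cells. In KO cells the values were 16.8, 15.8, 14.9 and 14.5 (normal) and 8.38, 7.64, 8.22 and 8.41 (paused) CPM. Gusb thus fell in both genotypes with no overlap, with changes of -1.06 ± 0.08 and -0.93 ± 0.08 (adjusted p = 1.5e-09 and 6.9e-09). Man2b1, an alpha-mannosidase, was also lower in both, at -0.16 ± 0.05 and -0.14 ± 0.05. Glb1 (ENSMUSG00000045594.10, chromosome 9, 114401076 to 114474898, plus strand), the beta-galactosidase read in senescence staining, was called in wild-type cells and not in KO cells. Its CPM was 37.8, 37.3, 51.8 and 54.3 in wild-type normal, 84.9, 83.3, 83.7 and 86.9 in wild-type paused, 63.8, 60.2, 58.4 and 60.7 in KO normal and 63.9, 62.0, 64.0 and 63.5 in KO paused cells. The wild-type change was 0.90 ± 0.09 (adjusted p = 3.3e-07) and the KO change 0.06 ± 0.09 (adjusted p = 0.59). Wild-type normal replicates 1 and 2 were lower than 3 and 4, and the wild-type change was 1.16 in the first subset and 0.68 in the second. Glb1 shares exons with Tmppe on the same strand (8.65 to 14.9 TPM). Manba (ENSMUSG00000028164.15, chromosome 3, 135485611 to 135571404, plus strand), beta-mannosidase, behaved otherwise: it was 192, 188, 176 and 178 CPM in wild-type normal and 206, 196, 183 and 179 CPM in wild-type paused cells, ranges that overlap. In KO cells it dropped from 209, 214, 225 and 224 to 119, 119, 121 and 119 CPM, a change of -0.87 ± 0.04 (adjusted p = 5e-12), with 0.06 ± 0.04 in wild-type cells (adjusted p = 0.26). Neu1, the sialidase of the cathepsin A complex, rose in wild-type cells by 0.49 ± 0.07 and was at 0.07 ± 0.07 in KO cells (adjusted p = 0.4). Naglu and Gaa were called in KO cells, at 0.85 ± 0.15 and 0.64 ± 0.05, and not in wild-type cells, at 0.34 ± 0.17 and 0.10 ± 0.05. Fuca1, alpha-L-fucosidase, fell in KO cells from 25.3, 26.6, 25.6 and 24.5 to 21.1, 21.5, 21.4 and 21.6 CPM (-0.25 ± 0.05). Gla, alpha-galactosidase A, fell in wild-type cells from 14.9, 13.2, 13.6 and 13.9 to 12.4, 11.7, 10.5 and 10.7 CPM (-0.30 ± 0.06) and was not called in KO cells (-0.10 ± 0.06).

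The sulfatases, which remove sulfate groups from glycosaminoglycans and sulfatides, rose in 4 of 5 genes in wild-type cells and in all 5 in KO cells, and none fell, with medians of 0.74 and 0.69. The shares of all genes that rose were 33.3% in wild-type and 34.4% in KO cells, and 27.5% and 32.8% fell. Galns, which acts on keratan and chondroitin sulfate, stood at 2.93, 2.95, 3.43 and 3.10 CPM in wild-type normal and 6.75, 5.78, 6.402 and 6.15 CPM in wild-type paused cells, and at 4.16, 3.99, 4.36 and 4.01 (normal) and 7.88, 7.69, 7.50 and 7.60 (paused) CPM in the KO groups. Its changes were 1.01 ± 0.07 and 0.89 ± 0.07 (adjusted p = 9.4e-10 and 3.1e-09), and neither comparison overlapped. Sgsh, the heparan sulfamidase, is scarce in these cells. It was 1.53, 1.56, 1.47 and 1.54 CPM in wild-type normal, 2.38, 2.82, 2.65 and 2.31 in wild-type paused, 4.32, 3.46, 3.60 and 3.54 in KO normal and 7.73, 8.18, 6.90 and 7.77 in KO paused cells. The paused libraries were higher by 0.74 ± 0.10 and 1.04 ± 0.09. Arsa, which acts on sulfatide, rose by 0.64 ± 0.07 and 0.41 ± 0.06. Arsb, which acts on dermatan sulfate, rose by 0.74 ± 0.15 and 0.69 ± 0.14, with wild-type values of 1.04 and 0.41 in the subsets. Ids, the X-linked iduronate sulfatase, was -0.09 ± 0.06 in wild-type cells and not called, and its KO call at 0.16 ± 0.06 was lost without any of 3 single libraries.

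Of the 4 lipid hydrolases 3 rose in both genotypes, where 33.3% of all genes rose in wild-type and 34.4% in KO pausing. Asah1 (ENSMUSG00000031591.14, chromosome 8, 41340197 to 41374773, minus strand), acid ceramidase, turns ceramide into sphingosine. It stood at 46.4, 45.8, 49.5 and 49.6 CPM in wild-type normal and 68.4, 72.1, 65.7 and 69.2 CPM in wild-type paused cells. KO cells began higher, at 84.2, 93.4, 88.4 and 79.7 CPM, and reached 148, 186, 150.2 and 184 CPM when paused. The 4 groups did not overlap, and the pausing changes were 0.53 ± 0.07 and 0.95 ± 0.07 (adjusted p = 4.4e-06 and 1.8e-09). Ppt1 removes palmitate from proteins. It was 24.8, 24.2, 24.9 and 25.9 CPM and 34.4, 33.8, 32.6 and 34.5 CPM in wild-type normal and paused cells, and 20.2, 21.3, 23.5 and 22.1 (normal) and 41.7, 44.7, 43.7 and 44.8 (paused) CPM in KO cells. It rose by 0.44 ± 0.05 and 1.01 ± 0.05. Ppt1 overlaps exons of Cap1 (106 to 139 TPM) on the other strand. Smpd1, acid sphingomyelinase, rose by 0.58 ± 0.06 and 0.54 ± 0.06. Lipa, the acid lipase of cholesteryl esters and triglycerides, was not called in pausing (0.08 ± 0.10 and -0.03 ± 0.09, adjusted p = 0.53 and 0.79). Of the lumenal proteins without enzyme activity, Psap rose by 0.44 ± 0.05 and 0.20 ± 0.05. Its wild-type libraries went from 187, 185, 208 and 215 to 281, 276, 262 and 264 CPM, with changes of 0.58 in replicates 1 and 2 and 0.30 in replicates 3 and 4. Npc2, which hands cholesterol to Npc1, was not called in pausing of either genotype, at 0.10 ± 0.05 and 0.00 ± 0.05.

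**Figure D3:**
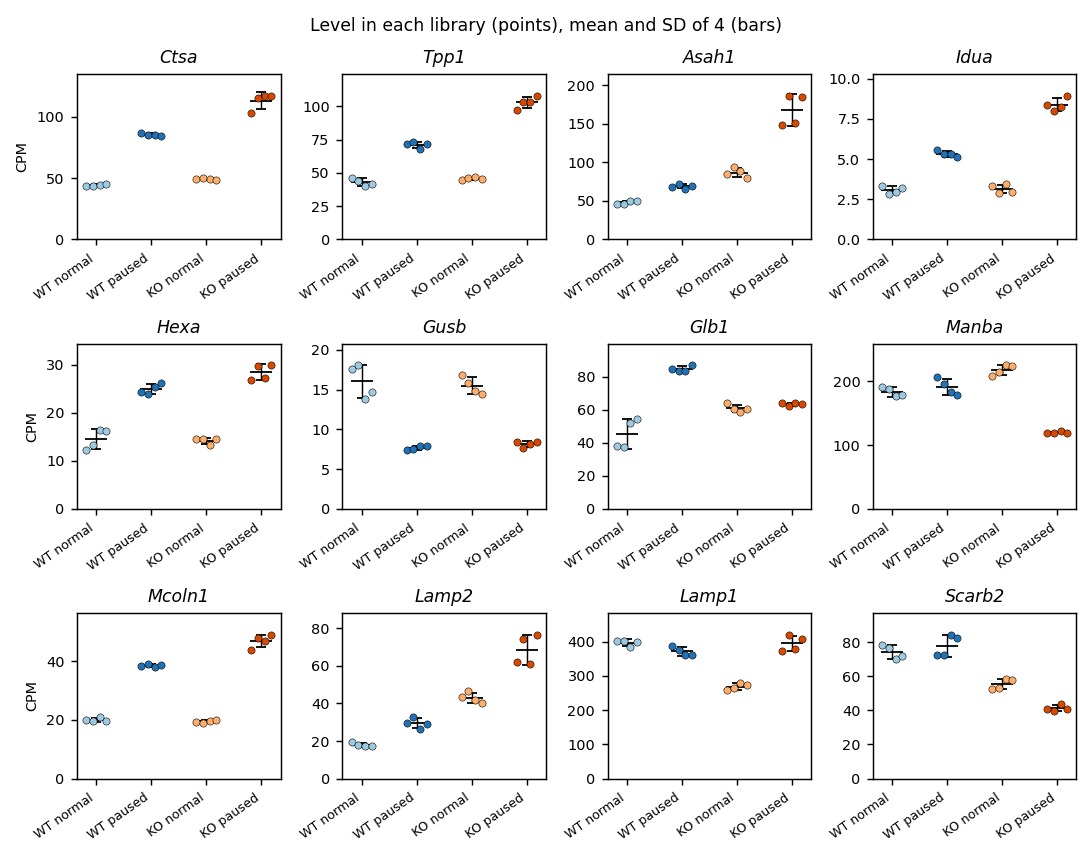
Level in CPM of 12 lysosomal genes in each library of the 4 groups (points), with the mean and SD of 4 libraries, on axes that start at 0. Ctsa, Tpp1, Asah1, Idua, Hexa and Mcoln1 lie higher in both paused groups, Gusb lies lower, and Glb1 and Manba differ between the genotypes.

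The membrane proteins separated into 2 that rose in both genotypes and 5 that did not. Mcoln1 (ENSMUSG00000004567.16, chromosome 8, 3500457 to 3515232, plus strand), the calcium channel that releases lysosomal calcium, was 20.1, 19.7, 20.8 and 19.5 CPM in wild-type normal and 38.5, 38.9, 38.0 and 38.6 CPM in wild-type paused cells. KO libraries gave 19.4, 18.9, 19.5 and 19.9 (normal) and 43.9, 47.8, 46.9 and 49.0 (paused) CPM. The channel gene rose by 0.94 ± 0.04 and 1.27 ± 0.04 without overlap (adjusted p = 8.9e-13 and 1.7e-14). Lamp2 (ENSMUSG00000016534.15, chromosome X, 38401357 to 38456454, minus strand), which also has a form that takes proteins into the lysosome for degradation, was 19.3, 17.9, 17.2 and 17.2 CPM in wild-type normal and 29.6, 33.0, 26.5 and 28.9 CPM in wild-type paused cells. In KO cells it was 43.7, 46.4, 42.0 and 40.1 (normal) and 62.3, 74.2, 60.8 and 76.6 (paused) CPM. Its changes were 0.72 ± 0.08 and 0.67 ± 0.08, from a higher start in the KO, and their difference was not called (-0.05 ± 0.11, adjusted p = 0.75). Lamp1 (ENSMUSG00000031447.7, chromosome 8, 13159161 to 13175338, plus strand) is the related coat protein and was much more abundant. It read 403, 403, 384 and 400.0 CPM in wild-type normal and 389, 376, 359.7 and 362 CPM in wild-type paused cells, which overlap, and 258, 266, 278 and 274 (normal) and 373, 420.2, 379 and 407 (paused) CPM in KO cells, which do not. Pausing gave -0.10 ± 0.04 in wild-type cells (adjusted p = 0.045, lost without any of 5 single libraries) and 0.56 ± 0.04 in KO cells (adjusted p = 7.9e-10). Npc1, the cholesterol exporter, was lower in wild-type pausing, from 51.9, 48.1, 48.7 and 49.7 to 43.1, 45.5, 47.7 and 45.6 CPM (-0.13 ± 0.05, lost without replicate 1 of either group), and rose in KO cells from 35.1, 37.5, 35.8 and 35.4 to 47.6, 53.5, 49.7 and 54.2 CPM (0.51 ± 0.05). Exons of Npc1 overlap those of Rmc1 (13.4 to 20.8 TPM) on the other strand. Cln3, whose loss causes a juvenile storage disease, was 15.0, 15.1, 15.0 and 15.0 (normal) and 14.1, 13.5, 13.3 and 13.5 (paused) CPM in wild-type cells and 13.8, 14.3, 14.4 and 13.7 (normal) and 15.2, 17.9, 16.1 and 19.3 (paused) CPM in KO cells. The values for Cln3 were -0.14 ± 0.06, a call lost without any of 5 single libraries, and 0.29 ± 0.06. Cd63, a tetraspanin of late endosomes and exosomes, fell in wild-type cells from 37.8, 39.1, 50.4 and 52.6 to 32.8, 34.9, 35.1 and 35.6 CPM (-0.38 ± 0.09, with -0.18 and -0.55 in the subsets) and was not called in KO cells (0.07 ± 0.09). Scarb2, the receptor that carries glucocerebrosidase to the lysosome, was not called in wild-type cells (0.07 ± 0.06) but in the KO fell from 52.5, 53.3, 58.6 and 57.9 to 41.0, 39.5, 43.8 and 40.8 CPM (-0.43 ± 0.06, adjusted p = 2.4e-06). The count of 4 lower membrane proteins in wild-type cells became 1 without wild-type normal replicate 1, and 2 without wild-type normal replicate 4 or wild-type paused replicate 2, 3 or 4.

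The V1 sector, the cytosolic motor, moved downwards in wild-type pausing: none of its 10 tested genes rose and 8 fell, with a median of -0.21. Of all genes, 33.3% rose and 27.5% fell there. In KO cells 3 rose and 4 fell, with a median of -0.08. These KO shares, 30% and 40%, were near the 34.4% and 32.8% of all genes. Atp6v1a (ENSMUSG00000052459.13, chromosome 16, 44085402 to 44139705, minus strand) is the catalytic A subunit that binds ATP. It was 176, 170.4, 144 and 139.8 CPM in wild-type normal and 119, 119, 109.6 and 112 CPM in wild-type paused cells, and 133, 137, 127 and 128 (normal) and 126, 130.2, 119 and 124 (paused) CPM in KO cells. The wild-type groups did not overlap (-0.46 ± 0.06, adjusted p = 3.2e-06), and the KO change was -0.07 ± 0.06 (adjusted p = 0.31). Atp6v1b2, the partner B subunit, was 213, 205, 202 and 208 (normal) and 194, 192, 186 and 192 (paused) CPM in wild-type and 145, 139, 147 and 148 (normal) and 180.3, 181, 189 and 183 (paused) CPM in KO cells. It fell in wild-type cells, with a change of -0.11 ± 0.03. The KO change was upwards, at 0.34 ± 0.03. Atp6v1e1, part of the stalks that hold motor and membrane ring together, went from 85.1, 89.5, 92.4 and 94.6 to 74.3, 68.6, 71.4 and 71.0 CPM in wild-type cells (-0.34 ± 0.04) and also fell in KO cells (-0.13 ± 0.04), by an amount that differed between the genotypes (interaction 0.21 ± 0.06). Atp6v1c1, which joins the stalks, was -0.22 ± 0.04 and 0.11 ± 0.04, and Atp6v1d, of the central shaft, was -0.25 ± 0.04 and -0.05 ± 0.04. Atp6v1f, also of the shaft, fell in both, at -0.19 ± 0.04 and -0.19 ± 0.04. Atp6v1g1 was 0.01 ± 0.04 and -0.15 ± 0.04. Atp6v1h, a regulatory subunit, was -0.12 ± 0.04 in wild-type cells, with overlapping groups and a call lost without any of 3 single libraries. The scarce Atp6v1c2 was 0.282, 0.314, 0.398 and 0.296 CPM in wild-type normal and 0.269, 0.194, 0.245 and 0.209 CPM in wild-type paused cells. It was 0.921, 0.896, 0.748 and 0.923 CPM in KO normal and 0.194, 0.234, 0.256 and 0.355 CPM in KO paused cells, a change of -1.74 ± 0.19 (adjusted p = 1.3e-07). Its wild-type call, at -0.49 ± 0.21, was lost in 6 of 8 fits that left out 1 library, and its exons overlap those of Pdia6 (161 to 246 TPM). Atp6v1g2, a form known from neurons, rose in KO cells from 0.756, 0.925, 0.947 and 0.848 to 1.23, 1.91, 1.73 and 1.57 CPM (0.89 ± 0.16). Its exons overlap those of Nfkbil1 (10.5 to 17.8 TPM) on the other strand.

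The V0 sector, the membrane ring and its attachments, was mixed, with 6 of 9 genes higher and 3 lower in wild-type pausing and 5 higher and 4 lower in KO pausing. Shares over all genes were 33.3% higher and 27.5% lower in wild-type and 34.4% and 32.8% in KO pausing. Atp6v0b, a proton-binding ring subunit, was 49.6, 48.6, 45.4 and 49.1 (normal) and 58.0, 55.9, 53.7 and 52.4 (paused) CPM in wild-type normal and paused cells and 58.7, 56.0, 55.4 and 54.2 (normal) and 84.3, 89.0, 86.1 and 90.6 (paused) CPM in KO cells. It rose by 0.19 ± 0.04 and 0.64 ± 0.04. The main ring subunit Atp6v0c instead fell in both, with changes of -0.20 ± 0.04 and -0.28 ± 0.04, and it has an annotated pseudogene, Atp6v0c-ps2, with 2542 to 4139 counts. Atp6v0e, a small membrane subunit, fell in both genotypes, from 42.2, 44.0, 47.3 and 50.7 to 34.4, 33.2, 34.3 and 34.2 CPM (-0.44 ± 0.05) and from 37.9, 37.3, 37.9 and 37.3 to 24.2, 23.1, 25.2 and 24.2 CPM (-0.64 ± 0.05). Its paralog Atp6v0e2 fell from 9.85, 10.6, 9.81 and 10.9 to 7.48, 7.07, 6.17 and 6.63 CPM in wild-type cells (-0.59 ± 0.07) and changed by -0.23 ± 0.07 in KO cells. The a subunits Atp6v0a1 and Atp6v0a2 rose in both, at 0.32 ± 0.05 and 0.23 ± 0.04 in wild-type and 0.43 ± 0.05 and 0.30 ± 0.04 in KO cells. Atp6v0d1, which couples ring and shaft, rose by 0.20 ± 0.04 and 0.29 ± 0.04. Its scarce relative Atp6v0d2, known from osteoclasts, rose from 0.408, 0.235, 0.356 and 0.414 to 0.638, 0.639, 0.736 and 0.733 CPM in wild-type cells (0.96 ± 0.21) and from 0.142, 0.183, 0.17 and 0.215 to 0.345, 0.274, 0.531 and 0.386 CPM in KO cells (1.10 ± 0.24). Atp6v0a4 (ENSMUSG00000038600.12, chromosome 6, 38048483 to 38124586, minus strand), the a subunit known from kidney, was called in opposite directions. It was 2.44, 2.47, 3.94 and 4.20 CPM in wild-type normal and 5.56, 5.54, 8.70 and 8.32 CPM in wild-type paused cells, against 14.8, 14.6, 11.8 and 14.1 CPM in KO normal and 9.605, 8.45, 9.89 and 9.59 CPM in KO paused cells. That is a change of 1.11 ± 0.19 in wild-type (adjusted p = 6.8e-05) and -0.56 ± 0.17 in KO cells (adjusted p = 0.0094). Atp6v0a4 shares exons on its own strand with D630045J12Rik. The accessory proteins Atp6ap1 and Atp6ap2, needed for pump assembly, rose in both genotypes. Atp6ap2 stood at 39.2, 36.6, 38.0 and 39.7 (normal) and 49.0, 51.2, 45.9 and 49.7 (paused) CPM in wild-type and at 47.5, 48.8, 48.3 and 45.7 (normal) and 71.9, 76.0, 69.3 and 74.9 (paused) CPM in KO cells. Changes were 0.30 ± 0.04 and 0.51 ± 0.04 for Atp6ap1, and 0.35 ± 0.04 and 0.62 ± 0.04 for Atp6ap2. Restricted to the 17 pump genes at a mean of 5 TPM or more, 6 rose and 10 fell in wild-type pausing, and 8 rose and 6 fell in KO pausing.

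**Figure D4:**
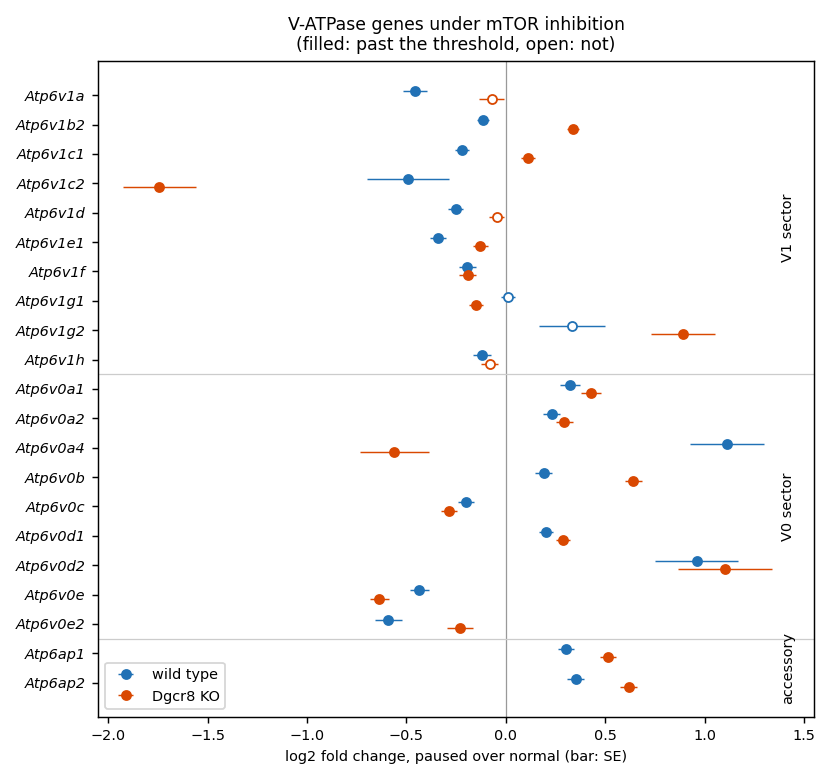
Log2 change in pausing, with standard error, of each tested V-ATPase gene in wild-type (blue) and KO cells (orange), grouped by V1 sector, V0 sector and accessory proteins; filled points passed an adjusted p under 0.05. Wild-type points of the V1 sector lie mostly below 0, and Atp6v0a4 and Atp6v1c2 show the widest gaps between genotypes.

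The genes with CACGTG in the promoter window were then set beside those without it, as a description. In wild-type pausing 10 of the 17 with the core rose and 5 fell, and of the 30 tested genes with a window that lacks it 13 rose and 10 fell. In KO pausing the counts were 13 higher and 1 lower with the core (median 0.56), and 13 higher and 12 lower without it (median 0.04). Over all genes tested, 33.3% rose and 27.5% fell in wild-type pausing, and 34.4% rose and 32.8% fell in KO pausing. Calls of all genes with the core were not counted, and the part of the motif in these changes was not tested. The 1 lower gene with the core in KO pausing was Atp6v0e. The 8 genes with TCACGTGA, most of them shown above, gave 4 higher and 4 lower in wild-type cells and 5 higher and 1 lower in KO cells. Ctsa and Mcoln1, with this form within 50 bases of the start site, rose in both genotypes, and Atp6v0e, with the same 8 letters just after the start, fell in both. Idua, Asah1, Tpp1 and Hexa rose in both genotypes: no match was found in the windows of Idua, Tpp1 and Hexa, and Asah1 had no window. Lamp1, with 4 copies of the core, rose in KO cells and was at -0.10 in wild-type cells.

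The difference between the 2 pausing responses was tested directly as an interaction. It was higher in KO cells for 22 of 57 genes and lower for 10, or 38.6% and 17.5%, where 17.4% of all genes were higher and 24.5% lower, and the median difference was 0.16 against -0.03 over all genes. At 0.5 log2 units or more 5 members were higher and 5 lower, against 9.58% and 11.6% of all genes. With upper-quartile scaling 31 were higher and 7 lower, and the share of higher genes among all called ones went from 41.5% to 52.5%. By class, 8 hydrolases and lumenal proteins were higher and 5 lower, 5 membrane proteins higher and 1 lower, and 9 V-ATPase genes higher and 4 lower. Lamp1 had the largest positive difference (0.65 ± 0.06, adjusted p = 1e-07), followed by Npc1 (0.64 ± 0.06), Idua (0.63 ± 0.11), Ppt1 (0.57 ± 0.06) and Gaa (0.54 ± 0.07). For Idua and Ppt1 the rise in pausing was larger in KO cells, while Lamp1 and Npc1 were called lower in wild-type and higher in KO cells. In the V-ATPase, Atp6v1b2 (0.45 ± 0.04), Atp6v0b (0.45 ± 0.06) and Atp6v1a (0.39 ± 0.09) led the positive differences. The largest negative ones belonged to Atp6v0a4 (-1.67 ± 0.25, adjusted p = 8e-05) and Atp6v1c2 (-1.25 ± 0.28), both minor isoforms. Manba (-0.92 ± 0.06, adjusted p = 3.7e-09), Glb1 (-0.84 ± 0.13, adjusted p = 0.0001), Scarb2 (-0.50 ± 0.08) and Neu1 (-0.42 ± 0.10) followed. The Glb1 difference was -1.14 in replicates 1 and 2 and -0.57 in replicates 3 and 4. It is 1 of 16 called differences over 1.5 times apart between these subsets, with Atp6v1c2 (-1.70 and -0.83), Psap (-0.46 and -0.01), Arsa (-0.41 and -0.04), Scarb2 (-0.30 and -0.69) and Cd63 (0.26 and 0.61) among them. Genes that rose in both genotypes without a called difference were Ctsf (0.22 ± 0.10), Ctsl (-0.25 ± 0.10), Hexa (0.22 ± 0.11), Galns (-0.12 ± 0.10), Arsb (-0.04 ± 0.21), Sgsh (0.30 ± 0.13), Smpd1 (-0.03 ± 0.09), Lamp2 (-0.05 ± 0.11), Atp6v0a1 (0.11 ± 0.07), Atp6v0a2 (0.06 ± 0.06), Atp6v0d1 (0.09 ± 0.05) and Atp6v0d2 (0.14 ± 0.31). The count of 8 higher hydrolases and lumenal proteins became 13 without wild-type normal replicate 3, and the count of 4 lower V-ATPase genes became 2 without wild-type normal replicate 2 or 3. Arsa, at -0.23 ± 0.09, lost its call in 13 of 16 fits that left out 1 library. Atp6v0e, Atp6v1g1, Ids and Psap each lost theirs in at least 1 such fit.

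Loss of Dgcr8 was read first in normal culture. There 25 of 57 genes were higher in KO and 16 lower (43.9% and 28.1%), where 34.1% of all genes were higher and 34.1% lower, and 13 members were higher by at least 0.5 and 3 lower (18.9% and 21.4% over all genes). The hydrolases and lumenal proteins were higher in 16 of 29 and lower in 4, the membrane proteins higher in 1 of 7 and lower in 4, and the V-ATPase higher in 8 of 21 and lower in 8. The genes with the highest changes in each class were Lipa, Sgsh and Neu1, Lamp2, and Atp6v0a4, Atp6v1c2 and Atp6v1h. Lipa was 2.41, 2.96, 2.73 and 2.65 CPM in wild-type and 7.63, 7.47, 6.29 and 6.31 CPM in KO cells (1.36 ± 0.10, adjusted p = 7.4e-10). Neu1 was 9.40, 10.03, 8.63 and 8.97 CPM and 20.4, 20.9, 18.4 and 16.9 CPM (1.05 ± 0.07). Sgsh (1.29 ± 0.10) and Naglu (1.01 ± 0.16) were higher too, while Idua, which also acts on heparan sulfate, was at 0.03 ± 0.08 and not called. Lamp2 was higher by 1.27 ± 0.08 (adjusted p = 1.3e-10) and Atp6v0a4 by 2.09 ± 0.19, from the values given above. Atp6v1h was 58.8, 58.5, 52.4 and 54.6 CPM in wild-type and 92.2, 94.9, 94.4 and 88.2 CPM in KO cells (0.72 ± 0.04). On the lower side were Lamp1 (-0.56 ± 0.04), Npc1 (-0.46 ± 0.05) and Scarb2 (-0.42 ± 0.06) of the membrane, Atp6v0d2 (-0.98 ± 0.24), Atp6v1b2 (-0.52 ± 0.03) and Atp6v1e1 (-0.43 ± 0.04) of the pump, and Ids, Psap and Ctsz of the lumen. Ids was 17.5, 16.1, 14.8 and 14.5 CPM in wild-type and 11.6, 12.6, 12.3 and 11.8 CPM in KO cells (-0.38 ± 0.06), and Psap 187, 185, 208 and 215 (wild type) and 177, 177, 163 and 155 (KO) CPM (-0.24 ± 0.05). None of the 41 calls was lost when any 1 library was left out. Between the subsets 11 of them were over 1.5 times apart, among them Atp6v0a4 (2.59 and 1.67), Glb1 (0.73 and 0.16), Psap (-0.07 and -0.42) and Cd63 (-0.17 and -0.55). With upper-quartile in place of TMM scaling the members split into 22 higher and 25 lower. The median of all genes shifted by -0.13 log2 units, and the share of higher genes among all called ones went from 50.01% to 38.2%.

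In paused culture 35 of 57 genes were higher in KO and 10 lower (61.4% and 17.5%), where 30.8% of all genes were higher and 34.5% lower. At 0.5 or more there were 17 higher and 3 lower members, with 16.3% and 20% over all genes. The hydrolases and lumenal proteins counted 20 higher and 4 lower, the membrane proteins 4 higher and 1 lower, and the V-ATPase 11 higher and 5 lower, with a median over all members of 0.27 against -0.03 over all genes. Upper-quartile scaling gave 29 higher and 15 lower members. Sgsh (1.59 ± 0.09), Naglu (1.52 ± 0.16), Asah1 (1.28 ± 0.07), Lipa (1.25 ± 0.10) and Lamp2 (1.22 ± 0.08) had the largest positive changes. Naglu was 1.46, 1.23, 0.913 and 1.46 CPM in wild-type paused and 3.17, 3.79, 3.59 and 3.89 CPM in KO paused cells (adjusted p = 1e-07), and Lipa 2.42, 2.74, 3.18 and 3.02 (wild type) and 6.33, 6.76, 7.30 and 6.70 (KO) CPM. In the pump, Atp6v1h (0.76 ± 0.04), Atp6v0b (0.67 ± 0.04) and Atp6ap2 (0.58 ± 0.04) were the highest. Scarb2, at 72.6, 72.5, 84.4 and 82.4 CPM in wild-type and 41.0, 39.5, 43.8 and 40.8 CPM in KO paused cells, was the lowest membrane protein (-0.92 ± 0.06, adjusted p = 1.1e-10). Manba (-0.67 ± 0.04), Psap (-0.48 ± 0.05), Glb1 (-0.42 ± 0.09), Atp6v0d2 (-0.84 ± 0.20) and Atp6v0e (-0.49 ± 0.05) were lower as well. Gaa, which breaks down glycogen, was 79.0, 73.8, 71.8 and 73.4 (wild type) and 134, 139, 135 and 136 (KO) CPM (0.87 ± 0.05). The calls of Atp6v0a4, Atp6v0d1, Atp6v1c1, Ctsf, Gla and Hexa in paused culture were each lost in at least 1 fit without 1 library, and the wild-type and KO libraries overlapped for Atp6v0a4, Atp6v0d1, Npc1, Gla and Ctsf. Subset values were over 1.5 times apart in 12 of the 45 calls, as for Atp6v0a4 (0.70 and 0.20), Ctsf (0.08 and 0.35) and Atp6v0d2 (-1.05 and -0.67).

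Differences between a wild-type and a KO line can also follow the position of a gene. Each value was therefore set beside the median log2 change of its neighbours, the 10 tested protein-coding genes on each side in order of position. These were 20 genes in all, but 15 for Mcoln1 and 17 for Atp6v1h. Some lay far off, as for Atp6v1g1, with neighbours from 62499008 to 73405072 on chromosome 4. In normal culture the member had the sign of its neighbours in 29 of 41 called genes, and in paused culture in 26 of 45. The same count over all called genes was not made. Lamp2 was higher in KO cells while its neighbours were lower, at -0.86 in normal and -0.71 in paused culture. Lipa had neighbours at -0.20 and -0.22, also against its own direction. Psap was lower together with its neighbours (-0.93 and -0.94). Naglu and Atp6v0a1 lie 6293 bases apart on chromosome 11, and their neighbours were at 0.48 and 0.79 in normal culture, and at 0.15 and 0.15 in paused culture. Sgsh and Gaa, 57971 bases apart on the same chromosome, had neighbours at 0.31 and 0.30 in normal and 0.62 and 0.49 in paused culture. Over all of chromosome 1, which carries Atp6v1h, the median over 965 genes was 0.50 in both cultures. On chromosome X, with Lamp2, Gla, Ids, Atp6ap1 and Atp6ap2, it was -0.22 and -0.14. On chromosome 14 it was 0.24 and 0.23, and Ctsb, which lies there, was higher in KO cells by 0.68 in normal and 0.82 in paused culture. Medians over all protein-coding genes were near 0. The part of copy number or neighbourhood in the genotype values was not tested.

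**Figure D5:**
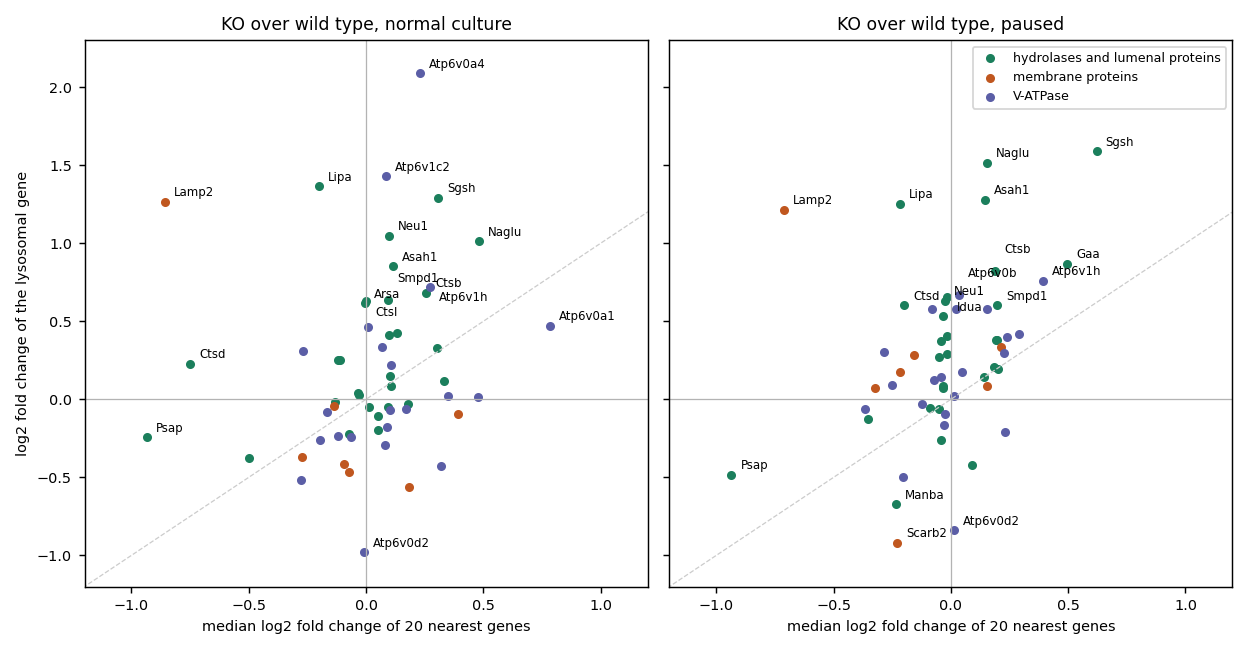
Log2 change of each lysosomal gene in KO against wild-type cells (vertical axis) and the median of its neighbours (horizontal axis), in normal and paused culture. Neighbours are the 10 tested protein-coding genes on each side, fewer for Mcoln1 and Atp6v1h, and the line of equality is dashed. Lamp2 lies at the upper left in both panels, high itself with low neighbours, and Psap lies at the lower left.

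Transcript-level TPM showed which forms carried these changes. For Ctsa the coding form Ctsa-202 stood at 18.04, 40.9, 21.3 and 55.4 TPM (means of wild-type normal, wild-type paused, KO normal and KO paused, here and below), while the retained-intron form Ctsa-208 stood at 2.79, 7.73, 3.53 and 11.8 TPM. Lamp2, whose alternative last exons give different membrane anchors, was carried mainly by Lamp2-202 at 5.14, 8.52, 13.2 and 20.7 TPM and Lamp2-201 at 2.15, 6.999, 6.48 and 15.7 TPM. Both Lamp2 forms were thus higher in both paused groups, with no test at this level. Asah1-201 was 17.5, 32.1, 37.8 and 87.5 TPM. Mcoln1-201 was 9.86, 22.8, 10.4 and 26.2 TPM. Most of the Tpp1 signal was assigned to forms annotated as not coding: protein-coding forms held 25.2%, 27.6%, 34.8% and 25.0% of its TPM, and the coding form Tpp1-201 itself stood at 7.57, 16.4, 11.3 and 22.5 TPM. Glb1-201 was 19.8, 46.8, 29.0 and 36.8 TPM, and the KO values include the shift of 0.17 log2 units of the median gene on this scale. Manba-201 was 58.4, 74.4, 77.9 and 48.04 TPM. The wild-type values of all these forms include the shift of the median gene in pausing, 0.28 log2 units on this scale. At the gene level the wild-type pausing change of Manba was 0.06 and not called.

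Other genes of the lysosomal system were read from further lists, each by its counts and by the 3 largest changes in each genotype, given for wild-type and then KO pausing. The counts are to be read against 33.3% higher and 27.5% lower of all genes in wild-type and 34.4% and 32.8% in KO cells. Of 31 tested other lysosomal enzymes and activators 19 rose and 2 fell in wild-type cells, and 18 rose and 4 fell in KO cells. Arsg, another sulfatase, changed by 2.03 and 1.92. Grn, which makes progranulin, changed by 1.25 and 1.02. Dpp7, a dipeptidyl peptidase, rose by 0.52 and 1.14. Naaa, an amidase of lipid amides, went down, by 0.57 and 1.57 log2 units (changes of -0.57 and -1.57). Among 22 tested other lysosomal membrane proteins 15 rose and 1 fell in wild-type cells, and 16 rose and 5 fell in KO cells. Mcoln3, a channel related to Mcoln1, changed by 1.35 and 0.82, and the ion channel Tmem175 by 1.03 and 0.86. Lmbrd1, needed for cobalamin export, rose by 0.68 and 1.28, the cystine exporter Ctns by 0.74 and 0.88, and the polyamine exporter Atp13a2 by 0.81 and 0.13.

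The mannose 6-phosphate route, which brings new hydrolases to the lysosome, gave 4 higher and 3 lower of 13 genes in wild-type cells and 7 higher and 4 lower in KO cells, in wild-type cells near the shares of all genes (33.3% and 27.5%). Gnptg, a subunit of the phosphotransferase that makes the tag, rose by 1.11 and 1.30, and the tag receptor Igf2r by 0.53 and 0.66. Ap1s1, of the adaptor that sorts the receptors, was at -0.58 and -0.78, both called. The alternative sorting receptor Sort1 was at -0.03 and not called in wild-type cells and at -0.66 in KO cells, where it fell. Of 13 regulators 8 rose and 2 fell in wild-type cells, and 9 rose and 2 fell in KO cells. Zkscan3, a repressor of lysosomal genes, rose by 0.65 and 1.19, and the Rag GTPase Rragb by 0.78 and 0.50. Fnip1, the partner of folliculin, rose by 0.59 and 1.05. Tfeb was at -0.62 in wild-type cells, where it fell, and at -0.03 in KO cells, where it was not called. Rragd, a Rag GTPase that TFEB is known to induce, was at -0.12 and not called in the wild type, whereas KO cells gave a rise of 1.10, an interaction of 1.22. Another list held 11 genes for V-ATPase assembly and regulation, counted with Tcirg1, an a subunit whose symbol the rule does not match. Of these, 6 rose and 3 fell in wild-type cells and 4 rose and 2 fell in KO cells. Tldc1 rose by 0.54 and 0.72, Dmxl1, part of the complex that brings V1 to V0, by 0.33 and 0.70, and Ncoa7 by 0.19 and 0.64. Rogdi was at 0.40, which was called, and -0.16, which was not. Vma21, an assembly chaperone of V0, was at -0.38 in wild-type cells, where it fell, and at -0.05 in KO cells, where it was not called. These lists were drawn up with earlier results of these data known.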

How the data were processed

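Poly(A) RNA of 16 libraries, 4 per group, was taken from 800000 cells per sample, with 1 µg of total RNA entering library preparation, per the labels' protocols. Per the file headers, the authors deposited for each library estimated counts, TPM and an effective length per transcript; kallisto and GRCm38 are named in the submitters' processing notes, and the kallisto version, transcript set and strand setting are not given in the sources used here. Replicates may be technical repeats.

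Transcripts were matched by their identifier to the GENCODE M21 annotation, and the unmatched ones held 0.656% to 0.712% of the counts. Deposited estimated counts were summed per gene and rounded to whole numbers. TPM, as deposited by the authors, was summed per gene to compare levels between genes. Class sums, marker sums and transcript forms were also given in TPM over the groups, as descriptions without a test. Changes of genes between groups were read from the TMM-scaled counts. Genes were filtered with filterByExpr (minimum count 10), scaled by TMM and tested in 1 fit of all 16 libraries by edgeR 4.0.16 (robust quasi-likelihood F test, R 4.3.3, limma 3.58.1), two-sided, with Benjamini-Hochberg adjustment over 18944 genes and a threshold of 0.05. The SE of a log2 change is its size divided by the square root of F. Alternatives were DESeq2 1.42.0, other scalings, filters, gene sets and library subsets, a replicate block, a term for replicates 1 and 2 against 3 and 4, and leaving out each library. The procedure was also run on simulated counts. Those counts held no difference between replicates 1 and 2 and replicates 3 and 4, so that run cannot show its effect. Summaries used Python 3.11.15 with pandas 2.3.3, numpy 2.4.6 and scipy 1.17.1, and figures matplotlib 3.10.9.

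Values in every library were given for the members with the 3 highest and 3 lowest called changes in each comparison within hydrolases with lumenal proteins, membrane proteins and V-ATPase, and in further lists the 3 largest changes were named, except that 1 gene is not reported here. The members and lists were chosen with earlier results of these data known. Depth was 88377380 to 116646028 counts per library, which limits mainly the scarce genes. Genes with near-identical copies or overlapping exons (24 members share exon bases with another gene, 18 of them with a protein-coding gene) are uncertain to the extent that reads could be assigned to either. The overlaps named above are not all of these.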

Additional observations from a re-analysis of the deposited data

Results flagged for a closer look

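In 8 of 228 sets of 4 libraries 1 library stood apart from the other 3 by Dixon's test at its 95% critical value, where chance gives about 1 in 20. Sgsh was 4.318 CPM in replicate 1 of KO normal culture, against 3.46 to 3.6 in the others. Atp6v0e was 33.17 CPM in replicate 2 of wild-type paused culture, below the others at 34.24 to 34.44. Ctsa was 103.3 CPM in replicate 1 of KO paused culture, below the others at 115 to 117.4. Atp6ap1 was 40.99 CPM in replicate 2 of KO normal culture, above 38.01 to 38.23. In replicate 3 of KO normal culture Atp6v1c2 was 0.7478 CPM, below 0.8964 to 0.9227, and Hexa was 13.3 CPM, below 14.48 to 14.58. Smpd1 was 7.698 CPM in replicate 3 of wild-type paused culture, below 8.445 to 8.522, and Atp6v0a2 was 41.25 CPM in replicate 1 of that group, above 40.23 to 40.31.

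In 32 of 57 genes the pausing response differed between the genotypes by the interaction term in edgeR (log2, KO minus wild type). Among the V-ATPase genes the positive differences were 0.454 for Atp6v1b2, 0.452 for Atp6v0b, 0.387 for Atp6v1a, 0.361 for Atp6v0e2, 0.33 for Atp6v1c1, 0.266 for Atp6ap2, 0.214 for Atp6v1e1, 0.211 for Atp6ap1 and 0.206 for Atp6v1d. The negative ones were -1.67 for Atp6v0a4, -1.25 for Atp6v1c2, -0.202 for Atp6v0e and -0.162 for Atp6v1g1. Hydrolases with a higher response in KO cells were Idua at 0.627, Ppt1 at 0.566, Gaa at 0.54, Tpp1 at 0.451, Asah1 at 0.427, Ctsd at 0.375, Ctsa at 0.258 and Ids at 0.252. Lower in KO cells were the responses of Manba at -0.923, Glb1 at -0.843, Neu1 at -0.417, Psap at -0.24 and Arsa at -0.232. Membrane proteins gave 0.652 for Lamp1, 0.637 for Npc1, 0.444 for Cd63, 0.43 for Cln3, 0.328 for Mcoln1 and -0.501 for Scarb2.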

How the results depend on the processing

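Over 27 alternative settings, 81 values were followed, those with the 3 highest and 3 lowest called changes per comparison and class. They gave 1651 alternative values. Of these, 1615 kept their direction and their side of the threshold, 36 kept only the direction and none reversed. Because the largest calls were picked, weaker calls named above, such as Lamp1 in wild-type pausing and Arsa in the interaction, are not among them. The 36 belonged to 9 values: Atp6v1c2, Cd63, Cln3 and Npc1 in wild-type pausing, Fuca1 in KO pausing, Atp6v0e, Atp6v1c2 and Cd63 in the interaction and Psap in the genotype comparison in normal culture. Of the counts of members, 3 moved by over 1.5 times. The 10 genes with a lower response in KO cells became 6 with replicates 3 and 4 only, a fit with fewer libraries. They became 6 with protein-coding genes only, where the median of all genes shifted by 0.05 log2 units in the interaction. The share of higher genes among all called ones there went from 41.5% to 51.3%, and the cause was not tested. The 16 genes lower in KO normal culture became 25 under upper-quartile scaling, where the median of all genes also shifted by -0.13. Over the alternatives that leave out 1 library, members higher and lower ranged from 27 to 28 and from 15 to 19 in wild-type pausing, from 32 to 33 and from 13 to 14 in KO pausing, from 21 to 28 and from 7 to 11 in the interaction, from 25 to 26 and from 16 to 18 in normal culture, and from 31 to 34 and from 9 to 10 in paused culture. In the interaction the share of higher genes among all called ones ranged from 40.2% to 48.8% over these fits. Labels number the replicates alike in every group. Deviations of same-numbered libraries correlated between -0.226 and 0.417, with 13 of 24 values over 0.1. These values do not settle whether equal numbers mark pairs. The main fit did not take them as pairs and held no term for replicate number or subset. With the replicate block, higher and lower members were 28 and 16 in wild-type pausing, 33 and 14 in KO pausing, 24 and 10 in the interaction, 25 and 16 in normal and 36 and 10 in paused culture. Depth limits the scarce genes, such as Naglu, Arsb, Atp6v0d2 and Atp6v1c2.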
